A study of Mus musculus with 4 samples.

Results

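The regions described here are 3114 H3K27ac domains of G1E-ER4 cells treated with estradiol, most of which were wider than the H3K27ac peaks under them in G1E cells. H3K27ac, acetylation of lysine 27 on histone H3, was mapped by ChIP-seq (chromatin bearing the mark is pulled down with an antibody and its DNA is sequenced). The domains were chosen by the peak calls themselves, so their coverage and lengths are given as a description. A domain was a peak of the pooled G1E-ER4+E2 list that was narrower than 30 kb, shared at least 1 bp with a pooled G1E peak, and had under 50% of its length covered by pooled G1E peaks. Of the 26384 pooled G1E-ER4+E2 peaks, 10636 did not overlap a G1E peak, 819 overlapped one but were 30 kb or wider, and 14929 overlapped one and were narrower. The 3114 domains were 20.9% of those 14929 overlapping peaks and 11.8% of the whole list. The other 11815 overlapping peaks, with 50% or more of their length covered, are called the other shared peaks below. The covered bases of a domain are its kept part and the remainder its added part.

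G1E is an immortalized mouse line of strain 129, derived from ES cells in which Gata1 was knocked out, and it serves as a model of erythroid progenitors. It was untreated. G1E-ER4 is a subline of G1E transduced with a virus that expresses a hormone-inducible GATA1-ER fusion protein, and it received 10 nM estradiol for 24 h. Both lines therefore carry the Gata1 knockout, and functional GATA1 was supplied only through the fusion protein. There were 2 replicates of each, and the labels do not say whether they came from separate cultures. An untreated G1E-ER4 sample was not analysed here, so the subline and the treatment cannot be told apart.

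GATA1 is a zinc finger transcription factor that binds DNA at GATA motifs and directs erythroid maturation, activating genes for hemoglobin, heme synthesis and the red cell membrane and repressing genes of the progenitor state. It often occupies DNA together with TAL1, a basic helix-loop-helix factor. H3K27ac is deposited by the coactivators EP300 and CREBBP and marks active promoters and enhancers. A broad peak of it can span a promoter, the first part of a gene and the enhancers nearby.

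The files give positions on mm9 and no gene names, and no genome or annotation of that build was used, so genes are named here only through tested DNA segments that the study lists. The study amplified TAL1-bound segments with PCR primers, and 8 such segments in expanding domains are described here. Primers are shown for 4 of them, of which the first pair of segments lay in kept parts and the second pair in added parts. They are shown because they are designed sequences that lie within the domains. All are written 5′ to 3′.
TAL1_1050 forward, chr12:58276401-58306000: attgaaggccacagcaacta
TAL1_1050 reverse, chr12:58276401-58306000: cattctcagcgctaggattaca
TAL1_2471 forward, chr2:35181001-35197000: tttctcttactgggcatctcctgacc
TAL1_2471 reverse, chr2:35181001-35197000: tgttctcacagcttctcctcggat
TAL1_3365 forward, chr4:155154001-155174600: ccactgtaagagcagtacatacttgg
TAL1_3365 reverse, chr4:155154001-155174600: ccctagtcagcagaaagtcgtcta
TAL1_987 forward, chr11:121280601-121300000: atcagttaagcccgccctcttgat
TAL1_987 reverse, chr11:121280601-121300000: cccagctgactataaagggactagga

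All 140 primers of the 70 tested TAL1-bound segments were searched on both strands among 32851 RefSeq promoters of assembly GRCm38.p6, each running from 250 bases before a gene's start to 50 bases after it. In all, 2 primers matched over their whole length, and both belonged to segments inside expanding domains. The forward primer of TAL1_1050 matched 20 bases of the promoter of Slc25a21, the gene of a mitochondrial carrier of oxodicarboxylates, as the reverse complement of bases 277 to 296. The reverse primer of TAL1_2471 matched 24 bases of the promoter of Stom, which encodes the red cell membrane protein stomatin, at bases 22 to 45. These promoters are shown because they tie the domains on chromosomes 12 and 2 to a gene. Both genes are on the minus strand, each sequence is written in the direction of the gene, and capitals mark the bases that match the primer.
Slc25a21: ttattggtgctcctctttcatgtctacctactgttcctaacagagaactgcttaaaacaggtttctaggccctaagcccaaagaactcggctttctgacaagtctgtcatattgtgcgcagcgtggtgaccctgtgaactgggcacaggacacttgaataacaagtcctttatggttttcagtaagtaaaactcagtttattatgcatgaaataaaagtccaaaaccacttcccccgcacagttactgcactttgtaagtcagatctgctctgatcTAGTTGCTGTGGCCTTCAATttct
Stom: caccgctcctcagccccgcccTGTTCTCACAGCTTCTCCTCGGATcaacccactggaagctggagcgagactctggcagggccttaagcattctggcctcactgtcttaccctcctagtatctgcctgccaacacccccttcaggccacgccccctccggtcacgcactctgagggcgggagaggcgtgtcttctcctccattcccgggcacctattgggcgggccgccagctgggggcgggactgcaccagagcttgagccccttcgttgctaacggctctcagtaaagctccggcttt
Neither promoter held AGATAA on either strand, nor AGATAG, nor the forms TGATAA or else TGATAG, which are letters of the GATA motif, while 29.8% of all promoters of this length held at least 1 of them. This says only that these letters are not in this window.

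The domains had a median width of 9.0 kb (quartiles 5.6 and 14.2 kb, range 0.6 to 29.8 kb). The median kept part was 2.6 kb (quartiles 1.6 and 4.4 kb). The median added part was 6.0 kb (quartiles 3.6 and 9.8 kb, range 0.4 to 27.4 kb). A typical domain was thus 3.06 times as wide as its kept part (quartiles 2.42 and 4.38), with 32.7% of its length kept. These lengths follow in part from the rule, which sets the lowest possible ratio of width to kept part. The added part was shorter than 2 kb in 187 domains, 2 to 5 kb in 1010, 5 to 10 kb in 1148, 10 to 20 kb in 691, and 20 kb or more in 78.

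Together the domains covered 33.1 Mb, which was 16.5% of the length of the pooled G1E-ER4+E2 list. Of this, 10.2 Mb were kept and 22.9 Mb added. The added bases made up 22.5% of the 102 Mb of G1E-ER4+E2 peaks that lay outside every pooled G1E peak.

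Most domains lay over a single G1E peak (2758, 88.6%), while 314 spanned 2 G1E peaks and 42 spanned 3. In 2190 domains (70.3%) every G1E peak lay wholly inside the domain. In the other 924, a G1E peak reached past the edge of the domain, by a median of 1.6 kb. Among these were 257 domains (8.25% of all) that were not wider than the G1E peaks they overlapped, with a median of 7.2 kb reaching past the edge. For those the word expanding goes against the peak widths, since the G1E-ER4+E2 peak overlapped only part of a wider G1E peak. The 2857 domains that were wider than their G1E peaks exceeded them by a median of 6.0 kb (quartiles 3.6 and 10.0 kb).

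The pooled G1E-ER4+E2 list covered more of the genome than the pooled G1E list, at 201 Mb against 140 Mb, and its enrichment over background was lower, with a median of 2.8 against 5.82. The replicate lists covered 163 and 161 Mb in G1E-ER4+E2 cells and 126 and 113 Mb in G1E cells. The part of these differences between lists in the number of expanding domains was not tested. To describe it, the rule was run with other lists. With the pooled lists exchanged, 1431 of 16793 overlapping G1E peaks (8.52%) had under 50% of their length covered by G1E-ER4+E2 peaks, with a median uncovered length of 4.0 kb. The G1E-ER4+E2 list was then cut to its 14064 most enriched peaks, those from an enrichment of 2.66 upward, which cover 140 Mb. Expanding domains were then 2013 of 10710 overlapping peaks (18.8%), with a median added length of 7.2 kb, and the exchanged rule chose 1072 of 13171 (8.14%).

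With single replicates, G1E-ER4+E2 replicate 1 had 2506 expanding domains against G1E replicate 1 (16% of overlapping peaks) and 3042 against G1E replicate 2 (19.6%). G1E-ER4+E2 replicate 2 had 2415 against G1E replicate 1 (16.2%) and 2960 against G1E replicate 2 (19.8%). With the lists exchanged, the shares were 13.2% and 13.3% for G1E replicate 1 and 9.67% and 8.92% for G1E replicate 2, against G1E-ER4+E2 replicates 1 and 2 in that order. All 4 shares of G1E-ER4+E2 peaks were above all 4 shares of G1E peaks, but the pairings reuse the same 4 lists.

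Replicates of the same cells gave smaller shares. The rule chose 5.19% of the overlapping peaks of G1E-ER4+E2 replicate 1 against replicate 2 and 5.88% in the other direction, with a median added length of 2.4 kb in both. In G1E cells it chose 7.19% for replicate 1 against replicate 2 and 2.06% in the other direction, with medians of 3.0 and 2.2 kb. Between the cell lines, the medians were 4.9 to 5.4 kb for G1E-ER4+E2 peaks against G1E and 3.4 to 4.4 kb with the lists exchanged.

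**Figure D1:**
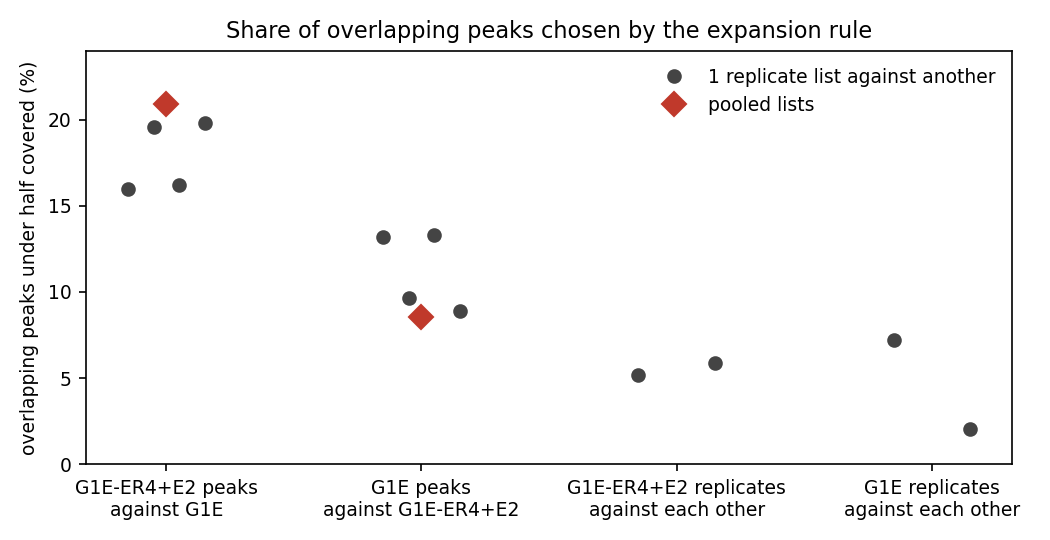
Share of overlapping peaks narrower than 30 kb that had under 50% of their length covered by the other list (vertical axis, %), for each direction of comparison. Circles are single replicate lists and diamonds the pooled lists; circles lie at 16% to 19.8% for G1E-ER4+E2 peaks against G1E, 8.92% to 13.3% for the exchanged lists, and 2.06% to 7.19% between replicates of the same cells.

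The domains were then read in each replicate list. These lists were not independent of the choice, since the pooled lists were made from the same replicates, so the values are a description. Peaks of G1E-ER4+E2 replicates 1 and 2 covered medians of 81.5% and 81.7% of a domain. Peaks of G1E replicates 1 and 2 covered medians of 26.8% and 25%. Both G1E-ER4+E2 medians were therefore above both G1E medians. Within a single domain the replicates of a line could differ more than these medians do, as the differences given below show.

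The kept parts were covered by medians of 100% in both G1E-ER4+E2 replicates, 88.9% in G1E replicate 1 and 85.7% in G1E replicate 2. Some kept parts held no peak of a replicate, 251 (8.06%) and 293 (9.41%) in G1E-ER4+E2 replicates 1 and 2 and 675 (21.7%) and 528 (17%) in G1E replicates 1 and 2. The added parts were covered by medians of 76.3% and 76.6% in G1E-ER4+E2 replicates 1 and 2, and by a median of 0% in both G1E replicates. Summed over all domains, the G1E-ER4+E2 replicates covered 72.5% and 73.2% of the added bases, and the G1E replicates covered 4.41% and 1.32%.

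Coverage of at least 50% of the added part was found in both G1E-ER4+E2 replicates for 1976 domains (63.5%), in 1 of them for 817 (26.2%) and in none for 321 (10.3%). In 77 domains the added part held no peak of either G1E-ER4+E2 replicate and rested on the pooled list alone. The added part was free of peaks in both G1E replicates in 1843 domains (59.2%). Both conditions, 50% coverage in both G1E-ER4+E2 replicates and no peak in either G1E replicate, were met by 1119 domains (35.9%). Added parts lie by definition in pooled G1E-ER4+E2 peaks and outside pooled G1E peaks, so these counts follow in part from the rule. No such shares are given for the other shared peaks. By length, 58.7% of the added bases (13.4 Mb) were in peaks of both G1E-ER4+E2 replicates, 28.3% in peaks of 1 and 13% in peaks of neither.

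A domain was called separated when the lower of its G1E-ER4+E2 coverages was above the higher of its G1E coverages. This held for 2616 domains (84%), beside 38.9% of all 14929 overlapping peaks, 27.1% of the other shared peaks and 15.8% of 1444 stable peaks. Stable peaks were at least 90% covered by G1E peaks and covered at least 90% of each G1E peak they overlapped. The rule used this same coverage, so the share was bound to be high among the domains. In 29 domains both G1E replicates were above both G1E-ER4+E2 replicates. A gap of at least 25 percentage points was present in 2086 domains (67%), beside 21% of all overlapping peaks. The G1E-ER4+E2 and G1E means differed by a median of 51.9 points (quartiles 36.5 and 65.1), the G1E-ER4+E2 replicates by 13 points and the G1E replicates by 6.67 points. With 2 replicates against 2, the smallest two-sided p of an exact permutation test is 0.333, and no test was made. Of the 257 domains that were not wider than their G1E peaks, 116 (45.1%) were separated, against 2500 (87.5%) of the others.

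Many domains that were continuous in the pooled list were broken in single replicates. A single peak of G1E-ER4+E2 replicate 1 overlapped 1955 domains (62.8%) and several peaks overlapped 1014 (32.6%). In replicate 2 these numbers were 2084 (66.9%) and 865 (27.8%). No peak was found in 145 and 165 domains in G1E-ER4+E2 replicates 1 and 2. G1E replicates 1 and 2 had no peak in 664 and 525 domains.

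**Figure D2:**
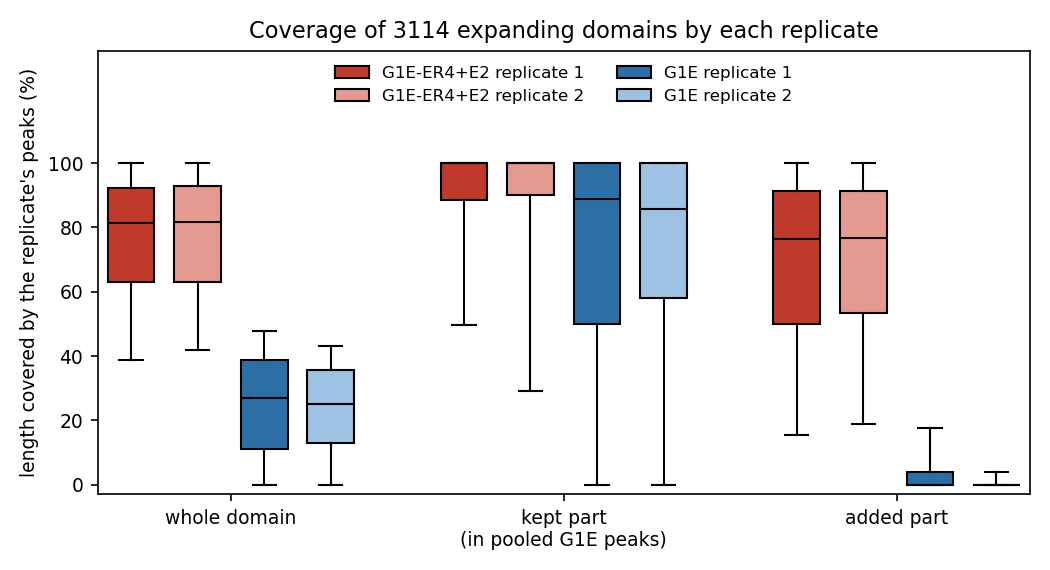
Percentage of the length of each domain, of its kept part and of its added part that was covered by peaks of each replicate (vertical axis). Boxes show medians and quartiles over 3114 domains and whiskers the 10th and 90th percentiles; medians for kept parts were 85.7% to 100% in the 4 replicates, while medians for added parts were 76.3% and 76.6% in G1E-ER4+E2 cells and 0% in both G1E replicates.

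Side was read by coordinate, left being the side of lower coordinates, since a peak has no strand. The domains were even in this respect, with 10.5 Mb added on the left and 10.5 Mb on the right of the G1E peaks, and 1.86 Mb added between G1E peaks. Within a domain the spread was mostly uneven. More than 90% of the outer added length lay on the left in 771 domains (24.8%) and on the right in 789 (25.3%), and these are called 1-sided. A further 1073 (34.5%) were skewed, and 328 (10.5%) were symmetric, with at least 40% of the outer added length on the smaller side. In 153 domains (4.91%) most of the added length lay between G1E peaks, and these are called internal.

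The 1-sided class depended on how the G1E peaks lay. In 850 of the 1560 1-sided domains (54.5%) a G1E peak reached past an edge of the domain, which leaves no added length on that side. Among the 2190 domains that held their G1E peaks wholly inside, 710 (32.4%) were 1-sided, 1073 (49%) skewed, 328 (15%) symmetric and 79 (3.61%) internal. The smaller side of these 2190 held a median of 18.8% of the outer added length (quartiles 5.88% and 33.3%). Left and right lengths went in opposite directions across them (Spearman's rho −0.32 over 2190 domains, a description of 2 lengths that share the limit on width).

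Added length was similar in the 1-sided, skewed and symmetric classes, with medians of 5.4 kb (left), 5.6 kb (right), 6.2 kb and 6.4 kb, and was 11.0 kb in internal domains. Internal domains also had the longest median kept part, 6.2 kb, and 94.1% of them were separated, against 78.1% of left and 78.7% of right 1-sided domains. The separated share also rose with width, as given below, and the classes were not compared at equal width. For 1-sided domains the larger side was the same in 86.2% to 89.1% of them in each of the 4 pairings of a G1E-ER4+E2 replicate with a G1E replicate. It was the same in all 4 pairings for 1224 (78.5%). Both sides were marked out by the pooled lists. In the 850 domains with a G1E peak past an edge, 1 side had no length and could not be the larger. This agreement was therefore largely set in advance.

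**Figure D3:**
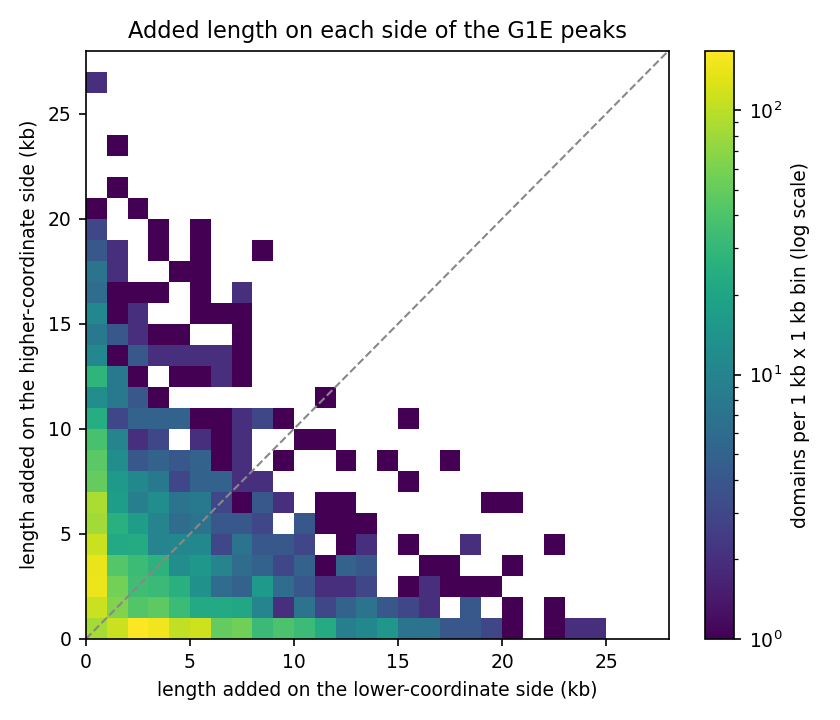
Length added on the lower-coordinate side (horizontal axis, kb) against that added on the higher-coordinate side (vertical axis, kb), as numbers of domains in bins of 1 kb on a logarithmic colour scale, with the diagonal dashed. The domains crowd along both axes, where added length lies on 1 side, and thin out along the diagonal, where the 328 symmetric domains lie.

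Enrichment can be compared only within a list, so each domain was given its percentile among all peaks of the G1E-ER4+E2 list, and its strongest G1E peak was given its percentile in the G1E list. Expanding domains were of middling enrichment in both. Their median percentile was 59.3 (quartiles 35 and 75.8) in the G1E-ER4+E2 list, at a median enrichment of 3.33. Their G1E peaks had a median percentile of 49.3 (quartiles 23 and 75.9). The other shared peaks had medians of 69.5 and 68.9, and stable peaks 77.9 and 72.5. G1E-ER4+E2 peaks without a G1E peak had a median percentile of 29.4.

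Width moved with the percentile, and the domains were wider than other peaks, with a median of 9.0 kb against 4.8 kb for the other shared peaks. Among peaks of the same width class, the domains' median percentile was 46.3 in the G1E-ER4+E2 list and that of the other shared peaks 70. For the G1E peaks of the domains it was 53.7 within width classes of the G1E list. In each of 4 width classes the domains had a lower median than the other shared peaks, 35 against 60.4 under 5 kb, 54.6 against 72 from 5 to 10 kb, 66.1 against 79.1 from 10 to 20 kb, and 73.6 against 82.7 from 20 to 30 kb.

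Percentile 90 or above of the G1E-ER4+E2 list was reached by 201 domains (6.45%), against 18.3% of the other shared peaks and 27.9% of stable peaks. Percentile 90 of the G1E list was reached by the G1E peaks of 313 domains (10.1%), and 78 domains reached it in both lists. A higher percentile in the G1E-ER4+E2 list than in the G1E list was found for 1758 domains (56.5%) and for 870 stable peaks (60.2%), with median differences of 4 and 3.47 points. Across domains the percentiles of the lists were related (Spearman's rho 0.62 over 3114 domains). Added length was only weakly related to the G1E percentile (0.18) and to the G1E-ER4+E2 percentile (0.31). In the replicate lists the medians were 64.4 and 62.6 in G1E-ER4+E2 replicates 1 and 2 and 52.8 and 50.3 in G1E replicates 1 and 2, over the 2969, 2949, 2450 and 2589 domains with a peak in each.

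**Figure D4:**
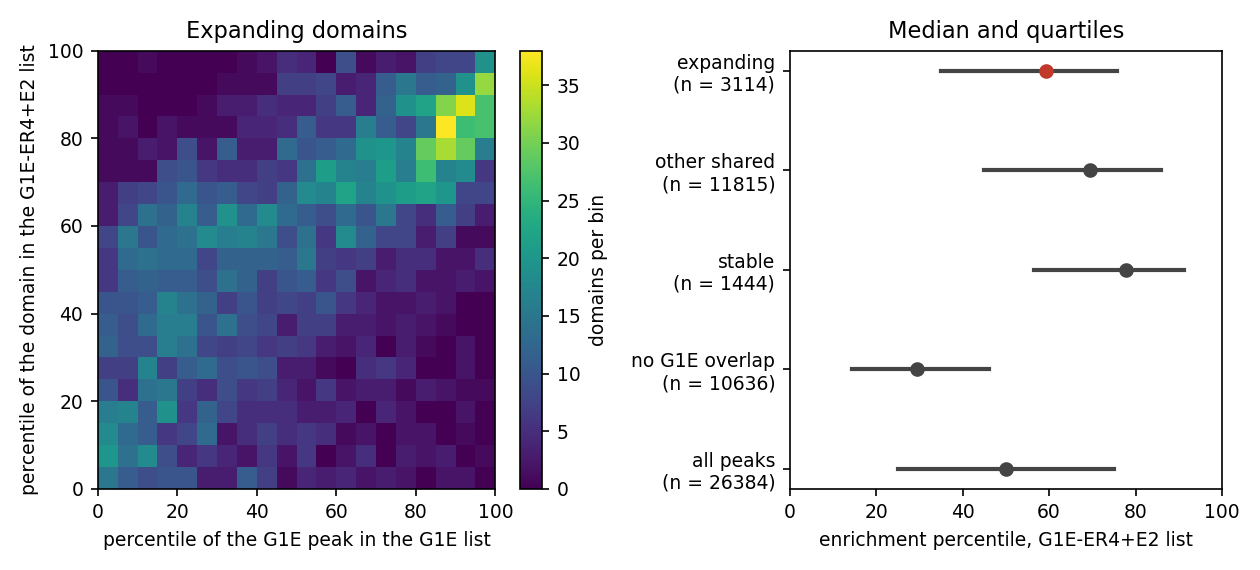
Left, percentile of the strongest G1E peak in the G1E list (horizontal axis) against percentile of the domain in the G1E-ER4+E2 list (vertical axis), as numbers of expanding domains in bins of 5 points. Right, median (point) and quartiles (line) of the percentile in the G1E-ER4+E2 list for each class of peak; expanding domains, at 59.3, lie between peaks without G1E overlap, at 29.4, and stable peaks, at 77.9.

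Expanding domains were a larger share of wide peaks than of narrow ones. They made up 9.37% of overlapping peaks under 5 kb (633 domains), 25.5% from 5 to 10 kb (1111), 35.6% from 10 to 20 kb (1016) and 36.6% from 20 to 30 kb (354). The median added length in these classes was 2.4, 4.8, 9.4 and 17.0 kb. The share of separated domains was 53.7% under 5 kb and 85.1%, 96.6% and 98.9% in the wider classes. The narrowest domains were thus separated least often. The rule used this same coverage, and no such shares are given for all overlapping peaks of each width. The 1-sided share was 66%, 50.6%, 44% and 37.6% in the same order.

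By chromosome, the domains' share of overlapping peaks was lowest on chromosome X (47 of 429, 11%) and on chromosome 4 (13.1%). It was highest on chromosome 12 (180 of 559, 32.2%), where the median added length was 8.0 kb, and chromosome 2 had the most domains (312, 26.3% of its overlapping peaks). For 792 domains (25.4%) a neighbouring peak of the list was also an expanding domain, against 19.3% of the other shared peaks. The nearest peak lay at a median distance of 2.4 kb for the domains and 4.0 kb for the other shared peaks.

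The study assembled 273 DNA segments tested in it or in earlier work, read here only for their positions, and 33 of them lay in 25 of the expanding domains. The kept parts held 19 and the added parts 14. The gene-named segments among them were those of Alas2, Hebp1 and Hipk2.

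The Alas2 domain, chrX:146980801-147004800, stood out by its enrichment of 21.3, at the 99.8th percentile of the G1E-ER4+E2 list. Alas2 encodes the erythroid form of the first enzyme of heme synthesis. The domain was 24.0 kb wide. Over it, the pooled G1E list had a peak of 5.2 kb, 0.6 kb from the left edge. It also had a peak of 1.4 kb that began 17.6 kb from that edge. Their percentiles in the G1E list were 60.8 and 54.9. The added 17.4 kb lay mostly between these pooled peaks, with 11.8 kb internal, 5.0 kb on the right and 0.6 kb on the left. Neither G1E replicate had a peak at the second of them, so the internal length rested on the pooled list alone. Peaks covered 100% of the domain in G1E-ER4+E2 replicate 1, 99.2% in replicate 2, 10% in G1E replicate 1 and 21.7% in G1E replicate 2. Each G1E-ER4+E2 replicate had a single peak across the domain, of 24.0 and 23.8 kb, and neither G1E replicate had a peak in the added part. The segments Alas2R1 and Alas2R3 lay in the kept part and Alas2NC1 in the added part.

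The Hebp1 domain, chr6:135106001-135121600, spread mostly to 1 side of a single G1E peak. Hebp1 encodes a heme-binding protein. The domain was 15.6 kb wide and kept a G1E peak of 4.0 kb that holds the segment Hebp1R2. It added 9.4 kb on the left and 2.2 kb on the right. Coverage was 91% and 79.5% in G1E-ER4+E2 replicates 1 and 2, against 20.5% and 21.8% in G1E replicates 1 and 2. Its percentile was 95 in the G1E-ER4+E2 list and 61.1 in the G1E list. As at Alas2, both G1E-ER4+E2 replicates had 1 peak over the domain and neither G1E replicate reached the added part.

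Hipk2, the gene of a serine/threonine kinase, gave its name to 7 segments in a pair of expanding domains, and all 7 lay in added parts. The domain chr6:38791001-38818400 was 27.4 kb wide, kept 2.0 kb and added 17.2 kb on the left and 8.2 kb on the right. Coverage there was 74.5% and 94.2% in G1E-ER4+E2 replicates 1 and 2, 0% in G1E replicate 1 and 7.3% in G1E replicate 2. The domain chr6:38699001-38718800 was 19.8 kb wide, kept 1.2 kb and added 18.6 kb, with coverage of 74.7% in both G1E-ER4+E2 replicates, 21.2% in G1E replicate 1 and 0% in G1E replicate 2. Both were weakly enriched, at percentiles 31.8 and 39.9 in the G1E-ER4+E2 list and 16.8 and 22.7 in the G1E list. In G1E-ER4+E2 replicate 1 each of them was broken into 3 peaks, and in replicate 2 each was a single peak.

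The domains tied to Stom and Slc25a21 by the primers shown above, like those of the other TAL1-bound segments, were picked for description after their values were seen. In the pooled list the Stom domain, chr2:35181001-35197000, spanned 3 G1E peaks of 0.8, 2.0 and 0.4 kb, and 10.0 of its 12.8 kb of added length lay between them. Coverage was 86.2% and 93.8% in G1E-ER4+E2 replicates 1 and 2, against 17.5% and 20% in G1E replicates 1 and 2. Both G1E-ER4+E2 replicates had 2 peaks over the domain, with the break before the last of the 3 G1E peaks, and G1E replicate 1 had no peak at the first of them. Its enrichment was at percentile 86.1 of the pooled G1E-ER4+E2 list. In the pooled G1E list the strongest of the 3 peaks was at percentile 88.6 and the others at 42.6 and 37.4.

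The Slc25a21 domain, chr12:58276401-58306000, was 29.6 kb wide and kept a single G1E peak of 6.8 kb, which was at percentile 96.4 of the G1E list. It added 18.8 kb on the left and 4.0 kb on the right, and its own percentile was 82. Coverage was 74.3% and 87.8% in G1E-ER4+E2 replicates 1 and 2, and 18.2% and 16.9% in G1E replicates 1 and 2. Single replicates did not show the domain as 1 piece, with 4 peaks in G1E-ER4+E2 replicate 1 and 3 in replicate 2. The strongest of them lay over the G1E peak, at enrichments of 12.3 and 13.1, while the peaks to its left had 2.2 and 4.4 in replicate 1 and 2.34 and 5.53 in replicate 2.

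**Figure D5:**
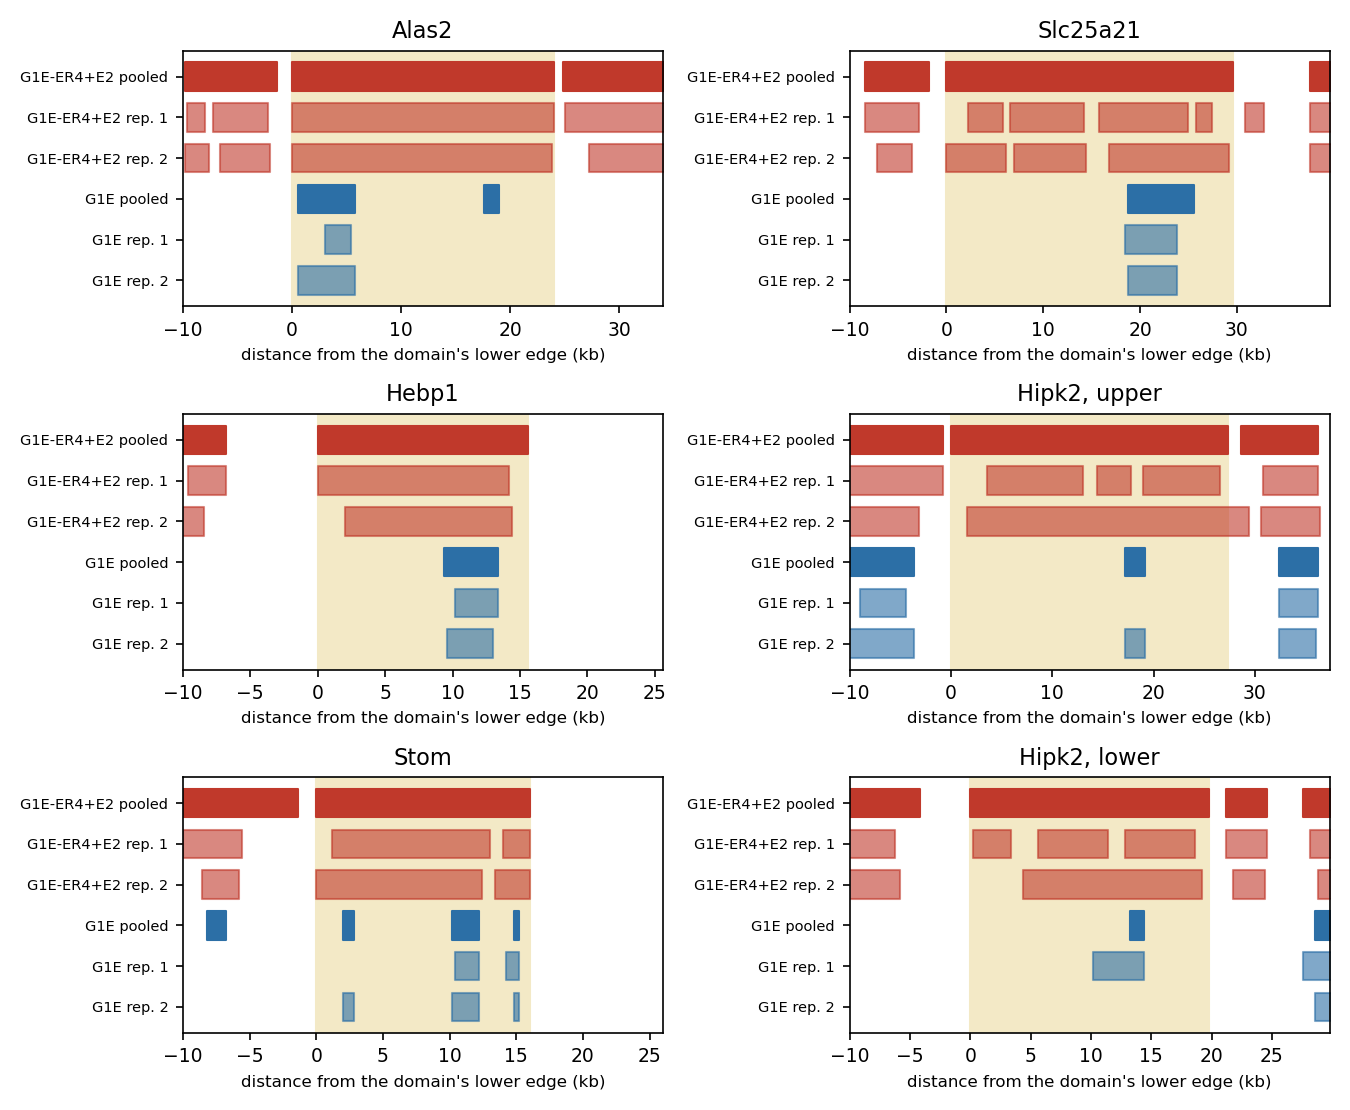
Peaks of the pooled and replicate lists at 6 expanding domains, drawn to scale by distance from the domain's lower edge (horizontal axis, kb), with G1E-ER4+E2 peaks in red, G1E peaks in blue, replicates in lighter tones and the domain shaded. The Hipk2 panels show the domain at higher (upper) and at lower coordinates (lower); in all 6 domains the G1E-ER4+E2 replicates filled most of the shaded span and the G1E replicates only a small part of it.

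Other TAL1-bound segments marked domains of differing support. TAL1_3365 lay in the added part of chr4:155154001-155174600, a domain of 20.6 kb with 14.4 kb added on the right. Coverage there was 71.8% and 89.3% in G1E-ER4+E2 replicates 1 and 2 and 6.8% in both G1E replicates, and its percentile was 94.9 in the G1E-ER4+E2 list against 43.2 in the G1E list. TAL1_987 lay in the added part of chr11:121280601-121300000, which was right 1-sided, with coverage of 79.4% and 91.8% against 25.8% and 14.4%. TAL1_4851 lay in the kept part of chr9:123860601-123867000, a small domain of 6.4 kb whose 3.8 kb of added length were all on the left, with coverage of 68.8% and 100% against 50% and 43.8%.

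TAL1_3461 lay in the kept part of the symmetric domain chr5:77078001-77097200, covered to 67.7% and 71.9% in G1E-ER4+E2 replicates 1 and 2 and to 24% and 14.6% in G1E replicates 1 and 2. The domain of TAL1_2747, chr2:167620001-167634200, was not separated, since its coverage of 56.3% and 42.3% in G1E-ER4+E2 replicates 1 and 2 overlapped the 49.3% and 35.2% of G1E replicates 1 and 2. Its 8.6 kb of added length was covered to only 32.6% and 4.65% in the G1E-ER4+E2 replicates. TAL1_1742 lay in the kept part of chr16:17623401-17650400, where coverage was 85.9% and 56.3% against 51.9% and 37.8%, a gap of few points between the nearest replicates. The added part there was covered to 73.5% in G1E-ER4+E2 replicate 1 but only 17.6% in replicate 2.

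The largest added lengths among separated domains outside chromosome 18 were close to the limit that the rule allows. The first was chr14:123027401-123056600, with 27.4 kb added to a G1E peak of 1.8 kb, 22.8 kb of it on the left. Coverage was 97.3% and 93.8% in G1E-ER4+E2 replicates 1 and 2, 6.16% in G1E replicate 1 and 0% in G1E replicate 2. It was followed by chr1:95447201-95476400 with 27.2 kb and by chr19:42592401-42621800 with 27 kb. The next were chr17:81422201-81451600 (26.8 kb), chr15:81246201-81275600 (26.4 kb), chr1:121561601-121590400 and chr6:28638801-28666400 (25.8 kb each). The list of 10 ended with the Hipk2 domain at higher coordinates (25.4 kb), chr2:173477201-173506400 (25 kb) and chr7:38776601-38805400 (24.6 kb), which tied with chr14:79850401-79875800. Their percentiles in the G1E-ER4+E2 list ran from 31.8 to 81.6, so the longest additions were not the most enriched domains.

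By enrichment the first was chrX:72920001-72921200, at 31.2 and percentile 99.97. It was only 1.2 kb wide, and the G1E peak under it reached 1.4 kb past its edge, so it was one of the 257 that were not wider than their G1E peaks. Alas2 was second. Then came chrX:39254201-39266800 at 16.8, chr5:135383401-135404000 at 15.7 and chr17:56064801-56078200 at 15.5. The domain on chromosome 5 was at percentile 48.8 in the G1E list and 99.2 in the G1E-ER4+E2 list, and its coverage was 92.2% and 73.8% against 35.9% and 36.9%. The domains chrX:39254201-39266800 and chr17:56064801-56078200 were already at percentiles 95.7 and 97.7 in the G1E list.

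Examples of spread were the separated domains with the longest added length among the left, right, symmetric and internal classes. On the left, chr7:38776601-38805400 added 24.6 kb and nothing on the right, chr7:105778201-105807800 added 24.4 kb, with its G1E peak reaching 0.4 kb past the right edge, and chr17:7006201-7036000 added 23.2 kb on the left against 0.8 kb on the right. On the right, chr15:81246201-81275600 added 26.4 kb and nothing on the left, chr19:42592401-42621800 added 26.6 kb against 0.4 kb, and chr14:79850401-79875800 added 23.2 kb against 1.4 kb. The 1-sided domain on chromosome 15 was covered to 84.4% and 89.8% in G1E-ER4+E2 replicates 1 and 2 and to 11.6% and 8.84% in G1E replicates 1 and 2.

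Among symmetric domains, chr5:110590601-110618400 added 11.4 kb on the left and 11.2 kb on the right of a G1E peak of 5.2 kb, with coverage of 79.1% and 81.3% against 8.63% and 10.1%. The others were chr6:28638801-28666400, with 15.4 and 10.4 kb, and chr8:73783001-73810600, with 11.4 and 9.4 kb. The internal domains with the longest added length were chr2:164831201-164861000, where 14.2 of 23.2 kb lay between G1E peaks, chr1:89312201-89340000 (15.2 of 22.0 kb) and chr1:153319801-153349000 (11.6 of 21.6 kb). The last was covered to 97.3% and 100% in G1E-ER4+E2 replicates 1 and 2 and to 18.5% and 21.2% in G1E replicates 1 and 2.

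The limits of the rule cut through similar peaks. Just inside the limit on coverage, at 49.6% covered, were chr16:17623401-17650400, chr16:57119801-57145200 and chr2:128492401-128515400, with 13.6, 12.8 and 11.6 kb added. Just outside, at 50%, were chr19:55997001-56023800, chr4:144561001-144585800 and chr4:120865401-120888600, with 13.4, 12.4 and 11.6 kb, and 205 peaks were covered to exactly 50%. Just under the limit on width, at 29.8 kb, were chr17:7006201-7036000, chr2:164831201-164861000 and chr1:58534201-58564000, with 24.0, 23.2 and 23.0 kb added. At 30 kb, chr11:32575401-32605400, chr13:41698001-41728000 and chr6:30071601-30101600 were outside, with 25.8, 23.6 and 21.2 kb. In all, 296 peaks of 30 kb or wider were under 50% covered and were left out by the limit on width alone.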

How the data were processed

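H3K27ac ChIP-seq was made from G1E cells and G1E-ER4+E2 cells with an anti-H3K27ac antibody and a TruSeq library kit. The authors deposited 6 broad peak lists on mm9, one per replicate and a pooled list per cell line. The submitters' processing notes name bcl2fastq 1.8.4, Bowtie 1.0.0 and SICER 1.1, without their roles. How replicates were pooled and the control used are not given in the sources used here. The deposited enrichment is a fold ratio, and the q-value (adjusted p-value) is as the authors deposited it, at most 0.01; the unadjusted p-value was not used. Peak edges lie on a grid of 200 bp, so lengths are no finer than that. Without read counts in these lists the depth is unknown, and intervals that need it were left out.

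Overlaps were computed by base with Python 3.11.15, NumPy 2.4.6 and pandas 2.3.3, and checked on simulated peaks. Spearman's rho used SciPy 1.17.1, and figures Matplotlib 3.10.9. A percentile is the share of a list with lower enrichment. No test was made, because the domains were chosen by the compared measure. Named domains outside chromosome 18 were the 10 with the longest added length, the 5 most enriched and 3 each of the left, right, symmetric and internal classes, all separated, those holding gene-named segments, and those at the limits of the rule. Domains holding TAL1-bound segments outside chromosome 18 were also named, separated or not, after their values were seen. Gene lists could not be read without an mm9 annotation. Alternatives changed 1 choice at a time. The members, lists and rules were chosen with earlier results of these data known. Segment positions and primers came from the study's supplementary tables, and activities were not used.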

Additional observations from a re-analysis of the deposited data

How the results depend on the processing

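Of the 3114 expanding domains, 1744 were under 10000 bp wide, 1908 were at or above the median enrichment of the list, and 2013 were chosen at equal covered length. A coverage limit of 40% gave 2191 domains and one of 60% gave 4369. Leaving out 1 replicate put the list of the other replicate in place of the pooled list of that line. This gave 2410 to 3808 domains. The median added length of 6000 bp was 6800 bp below 40% coverage, 5000 bp below 60%, 6600 bp without a limit of width, 4000 bp under 10000 bp, 7200 bp both from the median enrichment and at equal covered length, 5200 bp with replicate 1 and with replicate 2 of each line, 4900 bp and 5400 bp with crossed replicates, and 4600 to 6400 bp with 1 replicate left out.

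The 1-sided share of 50.1% was 56.2% under 10000 bp, 45% from the median enrichment, 45.3% at equal covered length, 59.2% with replicate 1 of each line, 56.1% for G1E-ER4+E2 replicate 2 against G1E replicate 1, 62.2% with a limit of 80% in place of 90%, and 44% to 58.5% with 1 replicate left out. The separated share of 84% was 79.4% below 60% coverage, 73.7% under 10000 bp, 94.1% from the median enrichment, 94% at equal covered length, 89.5% and 87.1% with replicates 1 and 2, 91% for G1E-ER4+E2 replicate 2 against G1E replicate 1, 67% with the gap of 25 points, and 79.3% to 91.2% with 1 replicate left out.

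The median percentile of 59.3 in the G1E-ER4+E2 list was 56.6 below 40% and 61.8 below 60% coverage, 61.2 without a limit of width, 48.1 under 10000 bp, 60.5 with at least 10% covered, 43.8 from the median enrichment and 45.1 at equal covered length (both ranked within the shortened list, which lowers every rank), 61.9 and 61.2 with replicates 1 and 2 and 61.3 and 62.7 with crossed replicates (ranked within the replicate lists), 58.1 with all G1E lists united, 46.3 within width classes, and 57.3 to 65.3 with 1 replicate left out. The percentile of 49.3 in the G1E list was 45.5 below 40%, 52.8 below 60%, 52.3 without a limit of width, 40.1 under 10000 bp, 65.6 from the median enrichment, 63.9 at equal covered length, 46.3 and 52.7 with crossed replicates, 53.7 within width classes, and 43.8 to 55.8 with 1 replicate left out. With 1 replicate left out, percentiles for that line were ranked within the list of its other replicate. The cause of these shifts was not tested.

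After the data were seen, the domains were restricted to the 2857 wider than their G1E peaks and to the 2190 holding them wholly inside. These had median added lengths of 6400 and 6600 bp, separated shares of 87.5% and 89.6%, and median percentiles of 61.6 and 63.7 in the G1E-ER4+E2 list, and the 1-sided share was 32.4% for those holding them inside. No paired analysis was possible because the results come from no test to which a replicate block could be added. Same-numbered replicates were compared by their values, given above. The unknown depth of the libraries, 2 replicates per line and the difference in covered length limit every count given here.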
